A study of Homo sapiens with 8 samples.

Results

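Nuclear pore and nuclear transport genes were taken as all gene names in the H3K9ac peak lists that start with NUP and hold a digit, or with KPNA, KPNB, XPO, IPO, TNPO or RANBP followed by a digit. This gave 50 gene names of 12186 that any H3K9ac peak had as its nearest gene. They were 18 nucleoporin genes, 18 importin genes, 6 exportin genes, 4 genes for other Ran-binding proteins and 4 names that only match the pattern. Those 4 are the pseudogene IPO5P1, the antisense or divergent transcripts IPO9-AS1 and NUP50-AS1, and NUPR1, which encodes a stress-induced protein and no nucleoporin. Further genes of these families, NUP37, NUP43, NUP62CL, NUP98, NUP50, NUP210L, KPNA7 and RANBP3L, were the nearest gene of no H3K9ac peak, so they have no value here. Of these, NUP50 shares a start region with NUP50-AS1, which has H3K9ac peaks in both lists, so NUP50 is not shown to lack the mark.

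The peaks came from chromatin of MIA PaCa-2 cells, an established pancreatic cancer line, grown as spheroids in a hyaluronan hydrogel. Astromal gels held only thiolated hyaluronan (Glycosil) with a PEGDA crosslinker, and were kept in plain DMEM with 2% FBS. Stromal gels also held Gelin-S, a collagen-derived component, and were kept in 2% FBS medium conditioned by immortalized myofibroblasts from resected human pancreatic tumours. All cultures were plated under DMEM with 10% FBS for the first day, so the groups share the cell line, the hyaluronan gel and that first medium, and the collagen-derived component cannot be told apart from the conditioned medium. H3K9ac and H3K27ac are histone H3 acetylations that mark active promoters, and H3K27ac marks active enhancers as well. Each mark had 1 library per condition, so no difference below has a replicate check and none has a p-value.

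The nuclear pore complex is a ring-shaped channel through the nuclear envelope, built from nucleoporins that form an outer Y-shaped scaffold, an inner ring, a central channel lined with phenylalanine-glycine repeats, a cytoplasmic face and a nuclear basket. Importins carry cargo into the nucleus and exportins carry it out, and the small GTPase RAN sets the direction by loading exportins and unloading importins inside the nucleus. These genes are expressed in almost every dividing cell, and the exportin XPO1 is a drug target in cancer.

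The H3K9ac libraries had about 3922717 tags in the astromal and 7569712 in the stromal condition, as estimated from the even steps of the values, and the H3K27ac libraries 13453902 and 17190695. Of the H3K9ac tags, 1.76% lay in the 7141 astromal peaks and 5.81% in the 20326 stromal peaks. The median H3K9ac peak held 9 tags in the astromal and 20 in the stromal library, so weak sites could go uncalled in the first. A level below is the sum over a gene's peaks of the deposited tag values, which the authors had scaled to a library of 10000000 tags. Intervals in brackets are exact 95% Clopper-Pearson intervals that cover counting error only.

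Promoter windows of 43 of the 50 genes were found in a RefSeq table (GRCh38.p14, 250 bases before to 50 bases after the start of transcription). Their median GC content was 62.0%, against 65.2% for the 8934 protein-coding genes with an H3K9ac peak. The ratio of observed to expected CpG was 0.859 against 0.836, so they are CpG-rich promoters like those of the other genes. Short motifs were searched on both strands as a description of these windows, with no claim that a factor binds. A match to the palindromic NRF1 motif, whose letters are in capitals below for NUP107, stood in 4 of 43 genes (9.30%, against 2.83% of the 8934 genes and 1.52% of all 27305 genes of the table), namely NUP107, NUP62, RANBP3 and NUP50-AS1. A match to the YY1 motif, in capitals below for NUP160, also stood in 4 (9.30%, against 2.62% and 1.04%), and TGACGTCA, the cAMP response element (CRE), in 3 (6.98%, against 3.93% and 2.25%). The GC box GGGCGG was found in 58.1% of the genes and in 78.5% of the 8934, and CCAAT in 46.5% against 43.1%. The shares of CCGGAAGT, an ETS match, were 16.3% and 10.7%, those of CACGTG, the E-box, 16.3% and 13.1%, and those of TATAAA 6.98% and 7.85%. With 43 genes, 1 gene is worth over 2 percentage points of these shares. The 43 include the non-coding IPO9-AS1 and NUP50-AS1, whereas the 8934 are all protein-coding, so the sets are not fully alike.

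The YY1 matches are shown because all 4 lay on the gene's own strand within the first bases of the transcript, at positions 30 to 40 of NUP160, 19 to 29 of NUP188, 10 to 20 of NUP88 and 22 to 32 of RANBP10, counted from 1 at the transcription start. The motif is in capitals in each 30-base stretch, printed 5′ to 3′ on the gene's strand (GRCh38.p14).
NUP160, chr11:47848301-47848330, minus strand: gacggcgggAAGATGGCGGCggcgggagcc
NUP188, chr9:128947708-128947737, plus strand: gggcgcgcgAAGATGGCGGCggccgccggc
NUP88, chr17:5419633-5419662, minus strand: agttgggccAAGATGGCGGCcgccgaggga
RANBP10, chr16:67806519-67806548, minus strand: gctccctccAAGATGGCGGCagcgacggca

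The NRF1 and CRE matches lay upstream of the start, and the CRE genes NUP214 and NUPL2 (now NUP42) are among the 3 genes with the highest H3K9ac ratios of summed peaks, an order that the highest peak alone does not give, as described below. NUP133 is the third gene with this element, with a centred H3K9ac ratio of -0.55, and NUP155, the other gene with a high ratio, has no such match in its window. The centred intervals of NUPL2 (-0.20 to 2.15) and NUP214 (-0.35 to 1.88) hold 0, and a link between motif and ratio was not tested. Capitals mark the motif on the gene's strand (GRCh38.p14).
NUP107, NRF1, chr12:68686884-68686913, plus strand: ggctgaagtcGCGCATGCGCtagatgggaa
NUP62, NRF1, chr19:49929544-49929573, minus strand: cgggcccagtGCGCATGCGCagccgcgcgc
NUP133, CRE, chr1:229508345-229508374, minus strand: gccattgcgttTGACGTCAtcatcgcgcgc
NUP214, CRE, chr9:131125436-131125585, plus strand: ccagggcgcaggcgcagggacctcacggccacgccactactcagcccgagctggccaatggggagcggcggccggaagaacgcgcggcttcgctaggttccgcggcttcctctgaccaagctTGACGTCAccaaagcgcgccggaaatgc
NUPL2, CRE, chr7:23181898-23182047, plus strand: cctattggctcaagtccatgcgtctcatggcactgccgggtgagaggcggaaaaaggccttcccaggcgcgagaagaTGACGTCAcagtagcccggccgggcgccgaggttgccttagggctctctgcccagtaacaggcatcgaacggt

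Upstream stretches of the transport receptors on which the results turn follow. XPO1 had the highest summed H3K27ac in both lists, with sites far upstream counted in. IPO7 was the only gene with a called difference, and KPNA2 had an upstream site in both marks. Capitals mark CCAAT in XPO1 and KPNA2, where it occurs 2 times in each, and the E-box in IPO7 (GRCh38.p14).
XPO1, chr2:61538357-61538506, minus strand: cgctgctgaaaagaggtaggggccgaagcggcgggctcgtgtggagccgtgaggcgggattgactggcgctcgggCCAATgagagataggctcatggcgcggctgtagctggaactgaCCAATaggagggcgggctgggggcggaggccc
KPNA2, chr17:68035585-68035734, plus strand: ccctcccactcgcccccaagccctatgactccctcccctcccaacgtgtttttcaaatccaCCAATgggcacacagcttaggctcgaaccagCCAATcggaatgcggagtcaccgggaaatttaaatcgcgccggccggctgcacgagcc
IPO7, chr11:9384502-9384651, plus strand: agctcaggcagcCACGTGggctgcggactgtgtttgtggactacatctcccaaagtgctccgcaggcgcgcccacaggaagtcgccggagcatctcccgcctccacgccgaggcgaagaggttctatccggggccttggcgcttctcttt

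Most nuclear pore and transport genes had H3K9ac in both conditions. Of the 50 names, 31 (62%) had a peak in both lists, where the background over all 12186 names was 46.8%. Another 18 (36%) were in the stromal list only, against 52.2%. IPO9 was the only name in the astromal list alone, against a background of 0.935%. Its astromal peak (chr1:201798366-201798566, hg19, 43.3 normalised tags) overlaps the stromal peak that carries the name IPO9-AS1 (54.2), and as 1 locus the counts become 32, 17 and 0. Every name in the lists is one that has a peak somewhere, so the shares describe these names and not all genes. Of the 31 names in both lists, 24 had an astromal peak that overlapped a stromal one, a count with no background over all names here. At IPO13, IPO5P1, NUP205, NUP214, NUP35, RANBP6 and TNPO3 no peaks overlapped, so their ratios compare peaks at different positions.

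Levels of the 31 genes in both lists were higher in the stromal library for all but IPO7, 30 of 31, where the background was 94.2%. The median log2 ratio of stromal over astromal H3K9ac was 0.75 (quartiles 0.45 to 1.37) and that of all 5706 names in both lists 0.98. Taking only the highest peak of each gene, the medians were 0.69 and 0.67. Summed levels depend on how many peaks were called. The 12 genes with more stromal than astromal peaks had a median log2 ratio of 1.43, and the 17 with equal numbers 0.51, where all names gave 1.49 and 0.64. Ratios are therefore also given centred, that is, with the median of all names subtracted. The call of a higher or lower gene asked for a centred ratio of 2-fold or more with an interval that excludes 0. No gene was called higher, where 5.94% of all names were, and 1, IPO7, was called lower, against 3.56%. Without centring 11 of the 31 genes were past the same rule on the higher side, where 44.2% of all names were, and 0 on the lower (0.14%). By the highest peak alone 0 were called either way (backgrounds 0.21% higher and 0.613% lower), and a 1.5-fold rule called 0 higher (7.1%) and 2 lower (5.01%), IPO7 and XPO5.

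For H3K27ac most of the same genes were again in both lists, and none was called. A peak centred within 2 kb of an H3K9ac peak of the gene was present in both H3K27ac lists for 40 of the 50 names (80%, background 65.4%). IPO4 had one in the stromal list only (background 5.20%), IPO5, RANBP3, RANBP6 and XPO4 in the astromal list only (7.64%), and KPNA1, NUP210, NUPL1, NUPR1 and RANBP17 in neither (21.8%). The median log2 ratio over the 40 was -0.075 (quartiles -0.29 to 0.29) and that of all names -0.17. H3K27ac peaks were 196 bp wide in the astromal and 174 bp in the stromal list, a log2 ratio of -0.17. With tags divided by peak width, the uncentred median of the 40 was 0.097. Uncentred H3K27ac ratios and levels here and below are not corrected for this width. The stromal level was the higher in 17 of 40, against a background of 37.3%. By the 2-fold rule 0 genes were called higher (background 5.54%) and 0 lower (6.20%). A 1.5-fold rule called 4 higher (10.8%), KPNA6, NUP85, TNPO2 and XPO1, and 2 lower (10.3%), NUP93 and TNPO1. Without centring 0 were past the 2-fold rule on the higher side (3.18%) and 1, NUP93, on the lower (8.95%). IPO9 and IPO9-AS1 share 1 H3K27ac peak per list and are both counted.

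**Figure D1:**
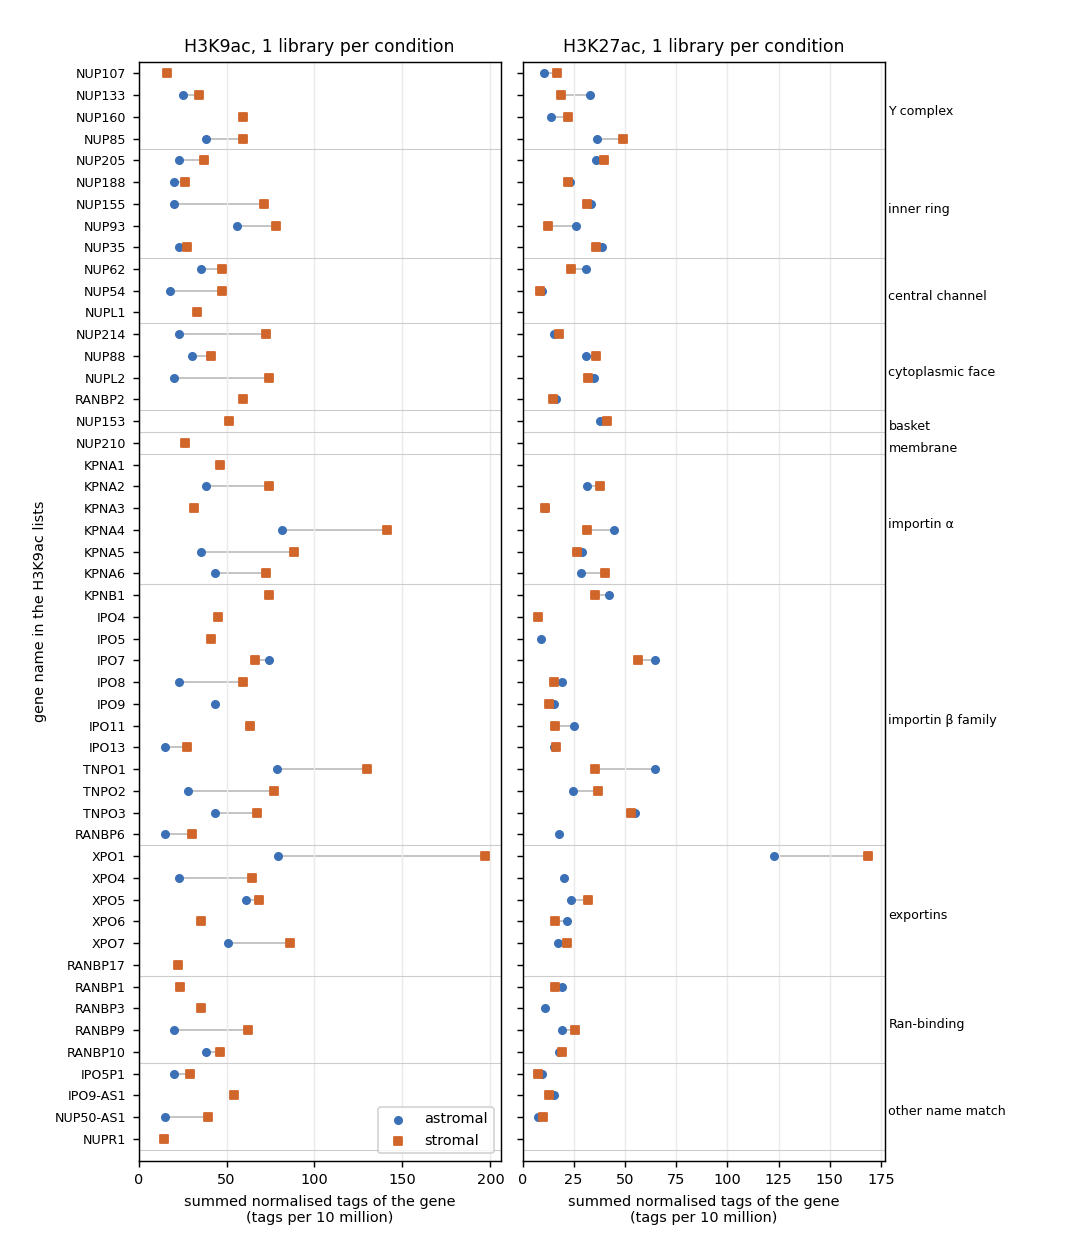
Summed normalised tags (per 10000000 tags) of each gene, H3K9ac on the left and H3K27ac on the right, with 1 astromal (circle) and 1 stromal (square) library each. Genes are ordered by role, a missing symbol means that no peak was listed, and the stromal H3K9ac symbol lies to the right of the astromal one for 30 of the 31 genes that have both.

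The inner ring, which holds the pore scaffold together, was marked in every list, with H3K9ac and H3K27ac at all 5 of its genes in both conditions. NUP93, which anchors the inner ring, had 56.0 normalised tags of H3K9ac in the astromal and 78.0 in the stromal library, and NUP205 had 22.9 and 37.0. NUP188 had 20.4 and 26.4, and NUP35 22.9 and 27.7. These 4 lie close together on the ratio scale, with centred log2 ratios from -0.71 (NUP35) to -0.30 (NUP205). However, the astromal and stromal peaks of NUP35 and NUP205 did not overlap, with centres 974 and 551 bp apart. NUP155, a membrane-proximal inner ring protein, stood apart with 20.4 and 71.4, a centred log2 ratio of 0.82 (-0.26 to 2.10). Its promoter peak was matched in the astromal list (chr5:37371667-37371867 and chr5:37371715-37371925, hg19, 20.4 and 30.4), and a second stromal peak of 41.0 in the 5′ UTR was not.

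H3K27ac of NUP93 was lower in the stromal library, where its H3K9ac was higher before centring. Centred, both marks of NUP93 were below the median of all names, with H3K9ac at -0.51. For H3K27ac NUP93 had 26 normalised tags in 2 astromal peaks and 12.2 in 1 stromal peak. This was the lowest H3K27ac ratio of all the genes, at -0.92 centred (-1.78 to -0.10). The uncentred value was -1.09 (-1.94 to -0.27). The promoter peak upstream of the start was nearly equal at 14.9 and 12.2. The astromal peak 219 bp inside the gene, with 11.1, had no stromal counterpart, and by the highest peak alone the centred ratio was -0.08. The H3K27ac of the other inner ring genes was close between conditions, for example 33.4 and 31.4 for NUP155 and 35.7 and 39.6 for NUP205.

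Of the Y complex, the outer scaffold, 2 of 4 genes had H3K9ac in both lists. NUP85 had 38.2 normalised tags in the astromal and 59.4 in the stromal library, and NUP133 25.5 and 34.3. NUP160 (59.5) and NUP107 (15.9, 12 tags) were in the stromal H3K9ac list only. All 4 had H3K27ac in both lists, at 36.4 and 48.9 for NUP85, 14.1 and 22.1 for NUP160 and 10.4 and 16.9 for NUP107. NUP133 was the exception to the direction, with 32.7 astromal and 18.6 stromal normalised tags. By summed peaks NUP107 and NUP160 had the 2 highest H3K27ac ratios of the whole group, at 0.87 (-0.10 to 1.90) and 0.81 (-0.02 to 1.69) centred. NUP133, at -0.64 (-1.35 to 0.04), had the third lowest. None of these 3 intervals leaves out 0, whereas that of NUP85, 0.59 (0.07 to 1.13), does. The 4 values rest on unequal peak numbers. By the highest peak alone NUP107 was at -0.05, NUP160 at 0.06, NUP85 at -0.31 and NUP133 at 0.04, so NUP107, NUP85 and NUP133 turned direction and RANBP9 (0.85) and XPO1 (0.78) ranked above them.

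On the cytoplasmic face, where mRNA leaves the pore, lay the 2 highest H3K9ac ratios of summed peaks besides NUP155. NUPL2, a docking site for the mRNA export factor GLE1, had 20.4 normalised tags in the astromal and 74.0 in the stromal library, 0.87 centred (-0.20 to 2.15). NUP214 had 22.9 and 72.7, 0.68 centred (-0.35 to 1.88), while its binding partner NUP88 had 30.6 and 41.0. In NUPL2 and NUP214 the astromal library had 1 peak and the stromal library 2, one on each side of the start site. By the highest peak alone the centred ratios were 0.34 for NUPL2, 0.34 for NUP155 and 0.02 for NUP214, below NUP85 (0.87), IPO8 and NUP50-AS1 (0.70 each). The stromal peaks of NUPL2 lay at chr7:23221090-23221300 and chr7:23221816-23222026 (hg19), in the promoter and the first intron, with 33.0 and 41.0. H3K27ac of the same genes was 34.9 and 32.0 for NUPL2 and 15.6 and 18 for NUP214. RANBP2, the SUMO ligase of the cytoplasmic filaments, had H3K9ac in the stromal list only (59.4) and H3K27ac in both (16.4 and 15.1).

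In the central channel, NUP62 had 35.7 and 47.6 normalised tags of H3K9ac and NUP54 17.8 and 47.6. NUPL1 (now NUP58) had 33.0 in the stromal list only and no H3K27ac. The basket gene NUP153 had 51.5 (39 tags) in the stromal H3K9ac list only, in the 5′ UTR of exon 1 at chr6:17706731-17706941 (hg19), with H3K27ac of 37.9 and 41.3. The membrane nucleoporin gene NUP210 had 26.4 in the stromal list and no H3K27ac. Over the 18 nucleoporin genes, 12 had H3K9ac in both conditions and 6 only in the stromal one, with a median log2 ratio of 0.56 (46.8%, 52.2% and 0.98 over all names). Of the 12, 0 were called higher (5.94%) and 0 lower (3.56%).

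**Figure D2:**
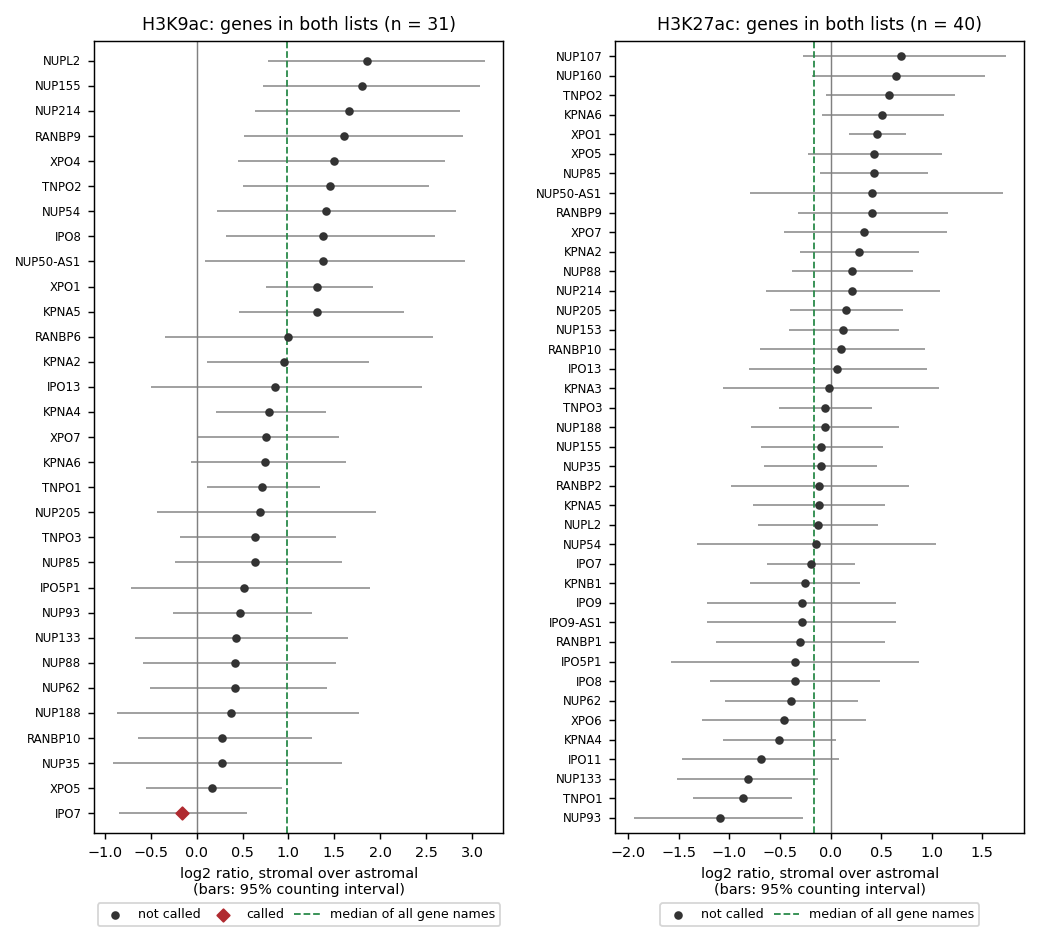
Log2 ratio of stromal over astromal summed tags, for the 31 genes in both H3K9ac lists and the 40 in both H3K27ac lists, with 95% counting intervals. The dashed line is the median of all gene names (0.98 and -0.17), and only IPO7 (diamond) is past the 2-fold rule.

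Among the importin α genes, whose products bind classical nuclear localization signals, KPNA4 had the highest astromal H3K9ac of all the genes described. It had 81.6 normalised tags in the astromal and 141.3 in the stromal library, -0.19 centred (-0.77 to 0.43). Its strongest peaks overlapped just upstream of the start, at chr3:160283593-160283793 (56.1) and chr3:160283697-160283907 (67.4, hg19). KPNA5 had 35.7 and 88.5, KPNA6 43.3 and 72.7, and KPNA2, which is high in dividing cells, 38.2 and 73.9. KPNA1 (46.3) and KPNA3 (31.7) were in the stromal H3K9ac list only. KPNB1, the importin β that carries importin α and its cargo, had 74.0 normalised tags (56 tags) in 3 stromal peaks around its promoters, the highest level of any stromal-only name here, and no astromal peak. H3K27ac at KPNB1 was listed in both conditions, at 42.3 and 35.5. At KPNA4 it was 44.6 and 31.4, and at KPNA6 28.3 and 40.2.

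IPO7, an importin β family member that carries ribosomal proteins among other cargo, was the only gene called, and its call rested on 1 upstream site. Its summed H3K9ac was 73.9 normalised tags (29 tags) in the astromal and 66.0 (50 tags) in the stromal library, a centred log2 ratio of -1.15 (-1.84 to -0.43). About 20 kb upstream the astromal list had 2 peaks, chr11:9385550-9385750 (30.6) and chr11:9386269-9386469 (25.5, hg19), in intergenic sequence. The stromal list had 1 there (26.4), so the site summed to 56.1 and 26.4, an uncentred log2 ratio of -1.09 (-2.04 to -0.14). At the start site the order was the opposite, with 17.8 (7 tags) and 39.6 (30 tags). With peaks within 1 kb of the start alone the centred ratio was 0.26 (-0.95 to 1.69), and with the highest peak alone it was -0.30, so the call was lost in both. H3K27ac at the upstream site summed to 34.9 and 37.8, log2 0.11 (-0.45 to 0.69). At the start site it was 29.7 and 18.6, log2 -0.68 (-1.39 to 0.03).

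The 3 transportin genes had both marks in every list. TNPO1, which imports RNA-binding proteins such as hnRNP A1, had 78.9 normalised tags of H3K9ac in the astromal and 129.6 in the stromal library, spread over 2 start sites 31512 bp apart. Its H3K27ac was 64.7 and 35.5, a centred log2 ratio of -0.70 (-1.19 to -0.21). Both start sites had the lower H3K27ac in the stromal library, 47.6 and 27.4 at the first and 17.1 and 8.14 at the second. Before centring, H3K9ac was the higher in that library at both, 50.9 and 71.4, then 28.0 and 58.2. Centred, H3K9ac of TNPO1 was at -0.27 (-0.87 to 0.36), so both marks were below the median of all names. TNPO2 had H3K27ac of 24.5 in 1 astromal peak and 36.6 in 2 stromal peaks, 0.75 centred (0.12 to 1.40), which turned to -0.20 with the highest peak alone. Its H3K9ac was 28.0 and 76.7. TNPO3, the carrier of SR splicing factors, had 43.3 and 67.4 of H3K9ac and 55.0 and 52.9 of H3K27ac. Neither TNPO1 nor TNPO2 reached 2-fold in H3K27ac, so they were not called, although their intervals leave out 0.

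Of the remaining importin β family, IPO8 had 22.9 and 59.4 normalised tags of H3K9ac, IPO13 15.3 and 27.7, and RANBP6, a relative of IPO5, 15.3 and 30.4. Of the stromal level of RANBP6, 14.5 lay in a peak about 64 kb upstream, and at its start site the values were 15.3 and 15.9, so its centred ratio went from 0.01 to -0.84 with peaks within 1 kb. IPO11 (63.4) and IPO4 (44.9), the latter a carrier of histones, were in the stromal list only. IPO4 was also the 1 gene with H3K27ac in the stromal list only, at 7.56. IPO5 had 2 stromal H3K9ac peaks (23.8 and 17.2) that lay 22218 and 23515 bp inside the gene, in introns 3 and 4, and none at its start. Its H3K27ac was a single astromal peak of 8.92. RANBP6 had H3K27ac of 17.8 in the astromal list only. The median log2 H3K9ac ratio of the 11 importin genes in both lists was 0.86.

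Among exportins, XPO1, the receptor for leucine-rich export signals, had the highest H3K9ac in the stromal list (196.8 normalised tags, 149 tags) and 79.0 (31 tags) in the astromal list, 0.33 centred (-0.23 to 0.94). It also had the highest H3K27ac in both, 122.6 and 168.8, 0.63 centred (0.35 to 0.91). These sums are large partly because they hold 3 sites. At the start site alone, astromal H3K27ac of XPO1 (40.8) was below that of TNPO3 (55.0), and its stromal H3K9ac (96.4) below that of KPNA4 (141.3). Stromal H3K27ac of XPO1 at the start (81.5) was still above the sum of any other gene described. Besides the start site, peaks of both marks lay in intergenic sequence about 133 kb and 156 kb upstream, and XPO1 is only the nearest gene to them. The start site had H3K9ac of 35.7 and 96.4, log2 1.43 (0.60 to 2.37). The site at 156 kb had 22.9 and 70.0, log2 1.61 (0.58 to 2.81), and the site at 133 kb 20.4 and 30.4, log2 0.57 (-0.64 to 1.95).

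H3K27ac at XPO1 differed among the 3 sites. At the start site it was 40.8 and 81.5, log2 0.99 (0.53 to 1.47), and at 133 kb 55.7 and 72.2, log2 0.37 (-0.05 to 0.81). At 156 kb it was 26.1 and 15.1, log2 -0.78 (-1.57 to -0.01), where the stromal list held 1 peak and the astromal list 2. At that site H3K9ac was the higher and H3K27ac the lower in the stromal library, and both intervals leave out 0 before centring but hold the medians of all names, 0.98 and -0.17. Fold over the surrounding 10 kb, the authors' value, was 4.29 to 5.53 at 133 kb and 6.28 to 11.8 at 156 kb in the astromal list. KPNA2 had a similar but nearer site about 15 kb upstream (chr17:66016398-66016598, hg19). There H3K9ac was 17.8 and 39.6 and H3K27ac 21.6 and 28.5, whereas the H3K27ac at the KPNA2 start was 9.66 and 9.31.

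**Figure D3:**
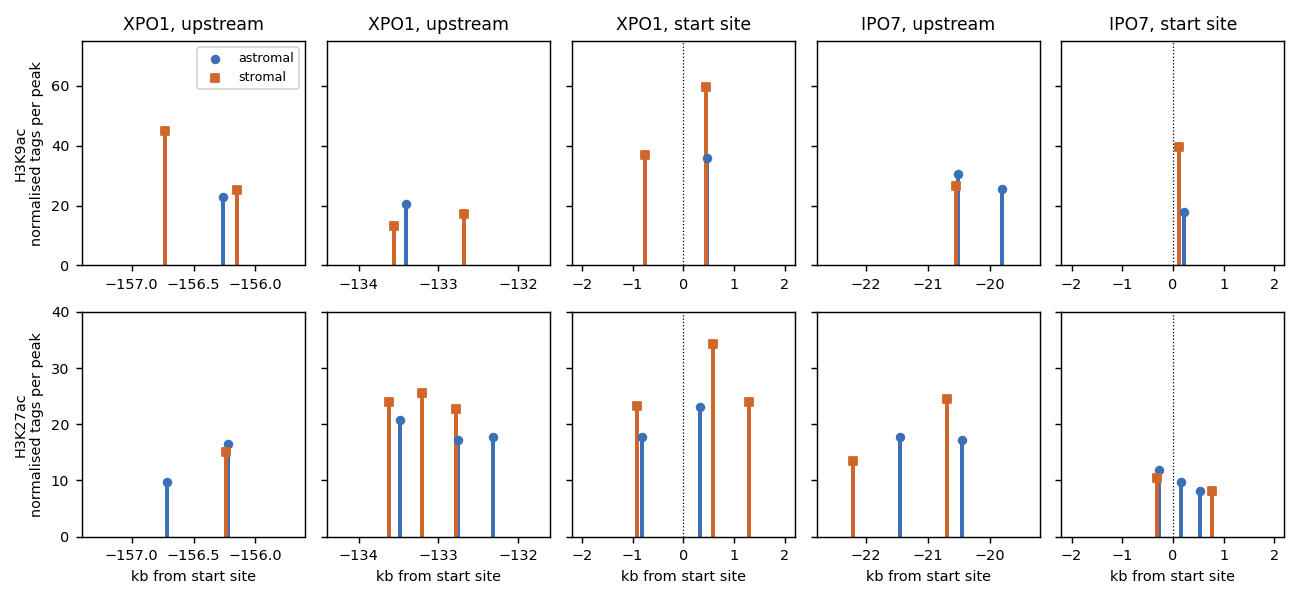
Normalised tags of each peak of XPO1 and IPO7 against its distance from the start site in kb, H3K9ac above and H3K27ac below, 1 astromal and 1 stromal library each. Each line is 1 peak. The IPO7 upstream site has 2 astromal H3K9ac peaks (30.6 and 25.5) and 1 stromal one (26.4), and the XPO1 start site has the tallest stromal peaks of both marks.

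XPO5, which exports microRNA precursors, had 61.1 and 68.7 normalised tags of H3K9ac, the second lowest ratio of the group at -0.82 centred (-1.54 to -0.06), beside H3K27ac of 23.8 and 32.0. Its peaks lie at a promoter shared with POLH on the opposite strand, so they cannot be assigned to either gene. Shared start regions with a divergent coding neighbour within 1 kb were also found for NUP188 with DOLK, NUP62 with ATF5, NUP88 with RPAIN and NUP50-AS1 with NUP50, 5 of 43 in all (11.6%, against 16.2% of the 8934 genes). XPO7 had 50.9 and 85.9 and XPO4 22.9 and 64.7 of H3K9ac. XPO4, an exporter of the translation factor eIF5A, had H3K27ac of 20.02 in the astromal list only. XPO6, the actin exporter (35.7), and RANBP17 (22.5) were in the stromal H3K9ac list only, and RANBP17 had no H3K27ac.

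The genes for other Ran-binding proteins were few. RANBP9, a scaffold of the CTLH ubiquitin ligase, had 20.4 and 62.1 normalised tags of H3K9ac, and its paralogue RANBP10 38.2 and 46.2, -0.71 centred (-1.62 to 0.27), tied with NUP35 for the third lowest ratio. RANBP3, a cofactor of XPO1 (35.7), and RANBP1, which helps RAN hydrolyse GTP (23.8), were in the stromal list only. However, an astromal H3K9ac peak that carries another gene name was centred 698 bp from the stromal peak of RANBP3. For RANBP1 such a peak lay at 972 bp. H3K27ac of RANBP3 was 11.1 in the astromal list only. Among the 4 names that only match the pattern, IPO5P1 had 20.4 and 29.1 and NUP50-AS1 15.3 and 39.6 of H3K9ac. NUPR1 had a stromal H3K9ac peak of 14.5, the lowest level of the 50 names.

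Of the 18 names in the stromal H3K9ac list only, 12 had an astromal H3K27ac peak, 10 had H3K27ac in both lists and 5 in neither. Over all 6366 stromal-only names the shares were 57.2%, 47.7% and 36.0%. All 5 genes without H3K27ac were among them. Their stromal H3K9ac had a median of 38.4 normalised tags, against 64.7 for the genes in both lists (30.4 and 55.5 over all names). Divided by the median ratio of highest peaks over all names and by the depth ratio, the strongest stromal peak of each would hold 3.58 to 13.4 tags in the astromal library. This reached 7 tags, the 5th percentile of the astromal list, in 10 of 18, and 9 tags, its median, in 3. The highest expected value, 13.4 tags, was that of IPO9-AS1, whose site had an astromal peak of 17 tags under the name IPO9. The median ratio used for this scaling comes only from names in both lists. Whether the other stromal-only genes carry H3K9ac too weak to be called in the astromal library was not tested.

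Peaks of both marks flanked the start sites. Of the H3K9ac peaks, 40 of 45 astromal (88.9%) and 75 of 84 stromal (89.3%) were centred within 1 kb of a start, where all peaks of the lists gave 86.1% and 76.5%. In the astromal list 33 of the 40 were downstream (82.5%, 68.3% over all peaks). In the stromal list 48 of 75 were (64%, 64.7% over all), and 27 were upstream, of which 21 overlapped no astromal peak. The median downstream peak lay 308 bp (astromal) and 343 bp (stromal) into the gene. For H3K27ac, 34 of 59 astromal and 35 of 63 stromal peaks within 1 kb of a start of known strand were downstream. Peaks over 10 kb from a start numbered 5 astromal and 9 stromal for H3K9ac.

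**Figure D4:**
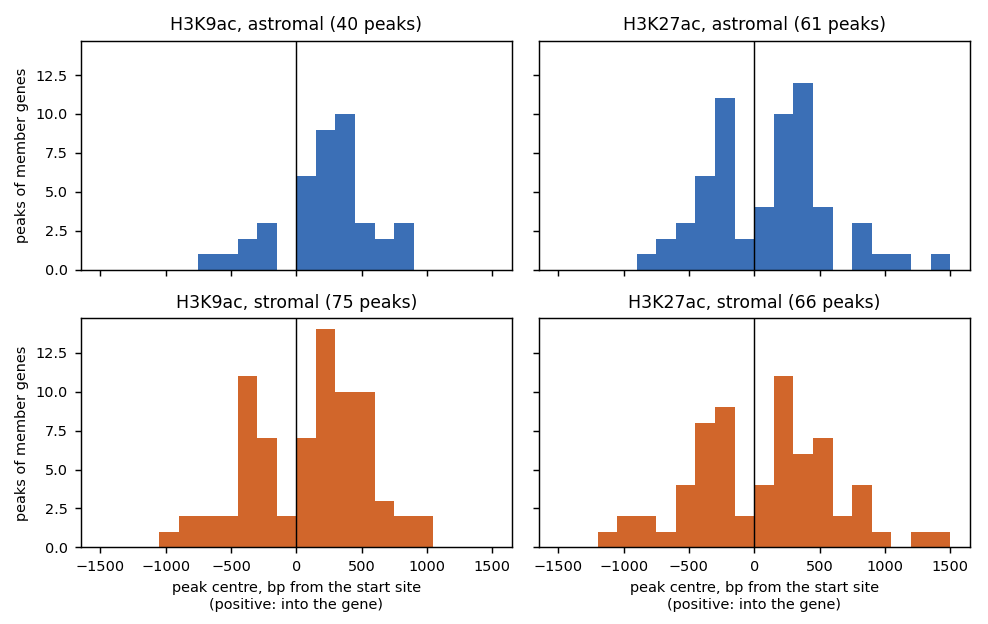
Number of peaks in 150 bp bins of distance from the start site (bp, positive into the gene), by mark and condition, 1 library each. Astromal H3K9ac peaks lie mostly downstream (33 of 40 within 1 kb), and the other lists have a group on each side with few peaks at the start itself.

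Every gene with astromal H3K9ac also had H3K27ac close by. In the astromal library 0 of 32 genes with H3K9ac lacked H3K27ac within 2 kb (background 9.73%), and in the stromal library 9 of 49 did (background 29.5%). Peak for peak, 28 of 45 astromal and 42 of 84 stromal H3K9ac peaks overlapped an H3K27ac peak of the same condition by at least 1 bp, where all peaks gave 59.6% and 39.8%. The median log2 ratio of H3K27ac over H3K9ac was -0.19 astromal and -1.19 stromal, against -0.16 and -1.34 over all names. Across the 29 genes with both marks in both conditions, the centred ratios of the marks had r = 0.25 and rho = 0.20 as a description, in which genes are not independent replicates. In these, 9 were above the median in both marks, 7 below in both and 13 opposite. Over all 4844 such names r was 0.03. Levels had r = 0.73 (rho = 0.67) between conditions over 31 genes for H3K9ac and r = 0.88 (rho = 0.83) over 40 genes for H3K27ac, where all names gave r = 0.50 and 0.76. These values share the depth and the peak number of their libraries.

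Other transport genes outside the name rule were taken from a list of 27, of which 23 were named by a peak. H3K9ac was listed in both conditions for 13 and only in the stromal one for 10, with a median log2 ratio of 1.12 (46.8%, 52.2% and 0.98 over all names). Of the 13, 3 were called higher (5.94% of all names) and 0 lower (3.56%). RAN, the GTPase that sets the direction of transport, had 20.4 and 84.6 normalised tags, 1.07 centred with an interval whose lower end was at 0.00. XPOT, the tRNA exporter, had 22.9 and 100.4, 1.15 centred (0.14 to 2.33). SEH1L, a Y complex subunit, had 15.3 and 92.4, 1.61 centred (0.42 to 3.11). The astromal sums of these 3 genes are low, as the median single astromal peak held 22.9 normalised tags and the 5th percentile was 17.8. Their calls rest on summed peaks and were not checked by the highest peak, by which 0.21% of all names were called higher. For H3K27ac 19 were in both lists, RCC1 and RAE1 in the astromal list only and POM121 and SEC13 in neither, with a median log2 ratio of -0.35 and 0 called. H3K27ac of the 3 genes called for H3K9ac was 20.1 and 21.5 for RAN, 53.5 and 30.9 for XPOT and 48.3 and 37.7 for SEH1L.

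The labelled cell type was checked with markers. Of 6 markers of the tumour line, 4 were named by an H3K9ac peak, KRT18 in both lists (25.5 and 26.4) and KRT8, KRT19 and VIM in the stromal list only, while EPCAM and CDH1 were named by none. KRT8, KRT18 and KRT19 had H3K27ac in both lists. VIM, counted here with the tumour line and not with fibroblasts, had stromal H3K9ac of 92.5. Its H3K27ac of 20.4 was in the stromal list only, as for 5.20% of all names. Of 11 fibroblast markers, the cell type that conditioned the medium, 4 were named, COL1A2 (111.0), ACTA2 (29.0), PDGFRA (23.8) and COL1A1 (17.2), in the stromal list only, as 52.2% of all names were. Their H3K9ac summed to 0 in the astromal and 181.0 in the stromal list. DCN, LUM, FAP, PDGFRB, COL3A1, THY1 and POSTN were named by no peak, nor were 4 leukocyte and 3 endothelial markers. COL1A2 had H3K27ac in both lists, at 89.2 astromal and 67.5 stromal, and the other 3 named fibroblast markers had none. The part of such cells, and of depth, in the differences above was not tested.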

How the data were processed

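The submitters' processing notes name CASAVA 1.8.2, Bowtie, HOMER and the build hg19. Per the file headers, H3K27ac peaks were called against input at an FDR of 0.001, with at least 4-fold over input and over the surrounding 10 kb and a p-value of at most 1e-04 for each. For H3K9ac the thresholds of the calling step are not given in the sources used. The signal is the deposited tag count normalised to 10000000 tags. H3K27ac tag counts are those the authors deposited, and H3K9ac tags were recovered from the even steps of the deposited signal, all within 0.1 tag of a whole number. The deposited fold ratios over input and local region were the authors' values. They were used to describe peaks, and the ratio over input also to filter them. The deposited p-values of these ratios, the authors' findPeaks score and their fraction of tags close to each peak centre enter no result. No file of the 4 input libraries was used.

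H3K9ac peaks were joined to a gene by the deposited nearest gene name, and H3K27ac peaks by a centre within 2 kb of such a peak. Levels are sums of normalised tags. Log2 ratios of stromal over astromal have exact Clopper-Pearson 95% intervals and were centred on the median of all names in both lists. The scripts (Python 3.11.15, pandas 2.3.3, scipy 1.17.1) were tested on simulated counts. Alternatives were the highest peak only, peaks within 1 kb of the start, no centring, a 1.5-fold rule, windows of 1 and 5 kb, tags divided by peak width, floors on low levels and 8-fold over input. For genes in both H3K9ac lists, overlap of an astromal with a stromal peak was a further alternative. The genes, role lists, marker lists and motifs were chosen with earlier results of these data known. Values per gene were printed for the 5 highest in each list, all names in 1 list only, all called genes and the 3 highest and 3 lowest ratios of each mark among genes with at least 20 tags, and further values to fill out each role. Promoter sequences are RefSeq's in GRCh38.p14 and were matched by gene identifier, and no position was moved between builds. Of the 50 names, IPO5P1, KPNA4, KPNA5, KPNB1, NUPR1, RANBP1 and XPO7 had no window in that table.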

Additional observations from a re-analysis of the deposited data

How the results depend on the processing

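With 1 library per group no replicate could be left out. No paired analysis was possible because each mark and condition has 1 library and no result comes from a test. The called fall of IPO7 was lost with the highest peak (-0.30) and without centring (-0.16) and turned to 0.26 with peaks within 1 kb of the start, so 0 genes were called lower for H3K9ac under each of these. Without centring 11 genes were called higher for H3K9ac (44.2% of all names), the median ratio was 0.75 against -0.23 centred, and for H3K27ac 1 was called lower (8.95%), with a median of -0.075 against 0.09 centred. With the highest peak the centred H3K27ac median was -0.080, and the median log2 ratio of H3K27ac over H3K9ac in the astromal libraries was -0.63. At 1.5-fold, 2 genes (IPO7 and XPO5) were called lower for H3K9ac, and for H3K27ac 4 were called higher (KPNA6, NUP85, TNPO2 and XPO1) and 2 lower (NUP93 and TNPO1). A floor of 10 normalised tags for H3K27ac gave 0 genes in the stromal list only, 9 in the astromal list only and 10 in neither, and 8-fold over input gave 2 in the stromal list only. As 1 locus, IPO9 and IPO9-AS1 left 0 in the astromal H3K9ac list only. The cause of these shifts was not tested. Without the antisense, pseudogene and NUPR1 names, 29 of 46 were in both H3K9ac lists, 16 in the stromal and 1 in the astromal list only, and over protein-coding names the backgrounds were 48.1%, 51.2% and 0.706%. Among these alternatives, that removal of names, the protein-coding background and the single locus were chosen after seeing the data. The windows of the sites away from a start, as at XPO1 and IPO7, were likewise set around peaks already seen. The median astromal H3K9ac peak held 9 tags, which limits the precision of its ratios.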
